A study of Mus musculus with 12 samples.

Results

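A set of 32 mouse genes of vascular smooth muscle, pericytes, mesangium and juxtaglomerular cells, chosen by gene symbol and without renin itself, was followed through RNA sequencing libraries of sorted kidney cortex cells. The deposited table of 23378 genes listed 30 of the 32, and 24 passed the filter on low counts and were tested. Kcnj8 and Higd1b were not listed. Casq2, Tbx18, Cygb, Dcn, Rgs4 and Lum held 12, 15, 16, 22, 63 and 120 counts over all 12 libraries and are described by their counts. All mice were C57BL/6 and carried the nNosCreERT2-mTmG model: a Cre that acts after tamoxifen, expressed from the gene of neuronal nitric oxide synthase, turns a red fluorescent reporter (tdTomato) into a green one (GFP). The green sort gave macula densa cells, the salt-sensing tubule cells beside the glomerulus, and the brightest red cells gave the control cells, described in the labels as distal tubule and collecting duct epithelium. Mice received either control diet or, for 14 days, low salt diet and drinking water with 150 mg/L enalapril, which blocks angiotensin-converting enzyme. There were 2 macula densa libraries and 4 control-cell libraries on each diet. The labels do not say whether libraries of a group came from separate mice, so p-values measure the spread between these samples, which may be technical.

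Mural cells are the contractile and supporting cells of vessel walls. Smooth muscle cells narrow arterioles through actin, myosin and their regulators, pericytes sit on capillaries and depend on signals through Pdgfrb and Notch3, and mesangial cells hold the capillary loops of the glomerulus. Renin is secreted by juxtaglomerular cells, which are modified smooth muscle cells at the glomerular end of the afferent arteriole. When salt or blood pressure falls for long, renin is known to be switched on again in smooth muscle cells further up the arteriole and in other cells of the same lineage. In bulk libraries such as these, more cells of a type and more RNA per cell cannot be told apart.

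Sequencing depth was uneven. The library totals lay between 4259020 and 14856542 counts, of which 781257 to 2331481 fell on nuclear protein-coding genes, and 3 counts, used as the floor of detection, corresponded to 0.231 to 0.734 CPM (counts per 1000000 of the scaled library total). Macula densa libraries matched their label: the sum of 6 macula densa markers was 2151 to 3087 CPM in them and 44.6 to 434 CPM in control-cell libraries. The control-cell libraries held principal cell markers (10 genes, 144 to 944 CPM in sum) and intercalated cell markers (8 genes, 29.4 to 452 CPM), but also endothelium markers (13 genes, 83.6 to 2282 CPM) and podocyte markers (12 genes, 165 to 2161 CPM). Mural RNA was measured in a red sort of mixed content, in which the 13 contractile members summed to 275 to 726 CPM.

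Replicate 4 of the control cells on control diet stood apart from the other 3 libraries of its group. Its endothelium markers summed to 83.6 CPM against 1289 to 2282 CPM, and its podocyte markers to 165 CPM against 1085 to 2161 CPM. Of the 24 tested mural genes, 10 were more than 2-fold below the median of the other libraries, beside 18.6% of all tested genes. These were Mylk, Des, Pdgfrb, Mcam, Gja4, Gja5, Foxd1, Ebf1, Pdgfra and Mgp. Gja5, a connexin of gap junctions in arterial endothelium and renin cells, was 13.9-fold below that median, Pdgfra was 11.6-fold, Des 10.6-fold, Ebf1 8.23-fold and Pdgfrb 6.31-fold. Foxd1 had 0 counts there and was at least 8.18-fold lower against the floor of 3 counts. Of the arteriolar muscle genes, Myh11, Tagln and Rgs5 lay inside the range of the other libraries. Myh11 measured 95.0 CPM against 74.5 to 120 CPM in the other libraries, Tagln 7.23 against 6.11 to 8.57 CPM and Rgs5 23.2 against 21.9 to 25.6 CPM. Akr1b7 and Ren1 also lay inside the range of the other libraries. All remaining tested mural genes lay below the lowest of those libraries. Acta2 measured 14.7 CPM against at least 16.7 CPM, Lmod1 2.69 against 3.66 CPM and Notch3 9.81 against 14.2 CPM. The gap was narrow for Tpm1, at 71.3 against 71.9 CPM. By role, the 10 comprised 2 of 12 contractile genes, 2 of 5 pericyte and signalling genes, 2 of 3 renin-cell and connexin genes, both transcription factors and both fibroblast genes. The plot of replicate 4 against its group shows the size of each difference. Diet values of these 10 genes without this library are given after the results by role.

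**Figure D1:**
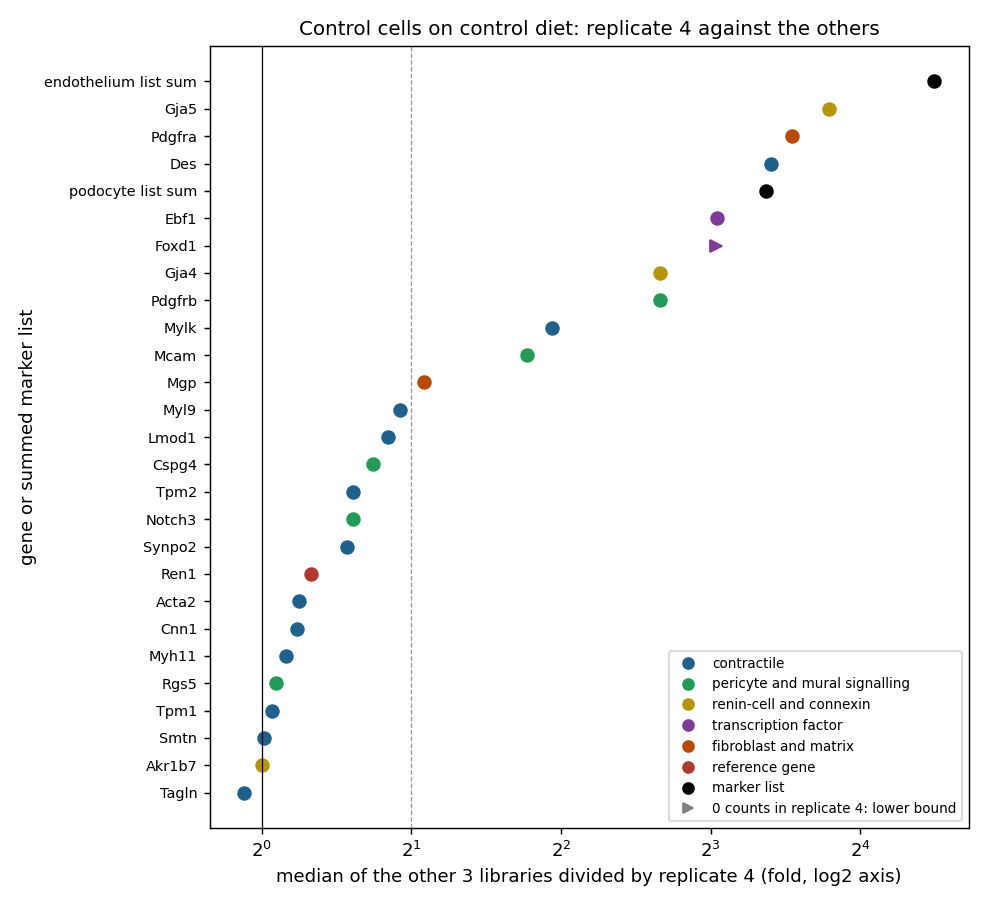
Each point is the median level of 3 control-cell libraries on control diet divided by the level in replicate 4 of that group (fold, log2 axis), for the 24 tested mural genes, Ren1 and the summed endothelium and podocyte marker lists, coloured by role. Points right of the dashed line are more than 2-fold lower in replicate 4: endothelium and podocyte markers, Gja5, Pdgfra, Des and Ebf1 lie far to the right, while Myh11, Rgs5, Smtn, Akr1b7 and Tagln lie at or near equality.

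Per kilobase of exon, the scale on which genes can be compared, Myh11 stood at 13.0 ± 2.55 CPM per kb (SD, n = 4) in control cells on control diet. Tpm1 followed at 11.4 ± 0.524 and Smtn at 11.3 ± 0.387, each within the spread of Myh11. Acta2 measured 8.89 ± 3.02 and Mylk 8.62 ± 4.15 CPM per kb, and these did not differ from each other or from the first group beyond their spread. Rgs5, at 5.26 ± 0.364 CPM per kb, was the pericyte and signalling gene with the highest mean, ahead of Pdgfrb at 3.76 ± 3.44 CPM per kb, whose spread covers it. Ren1 itself stood at 2.73 ± 1.15 CPM per kb on control diet and at 50.9 ± 24.0 CPM per kb (SD, n = 4) on low salt plus enalapril. Tropomyosin 1 (Tpm1) and smoothelin (Smtn) are also made outside smooth muscle, and Tpm1 was the mural gene with the highest macula densa level in CPM per kb, at 4.73 ± 0.718 (SD, n = 2) on control diet. The heat map of levels shows the whole set.

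**Figure D2:**
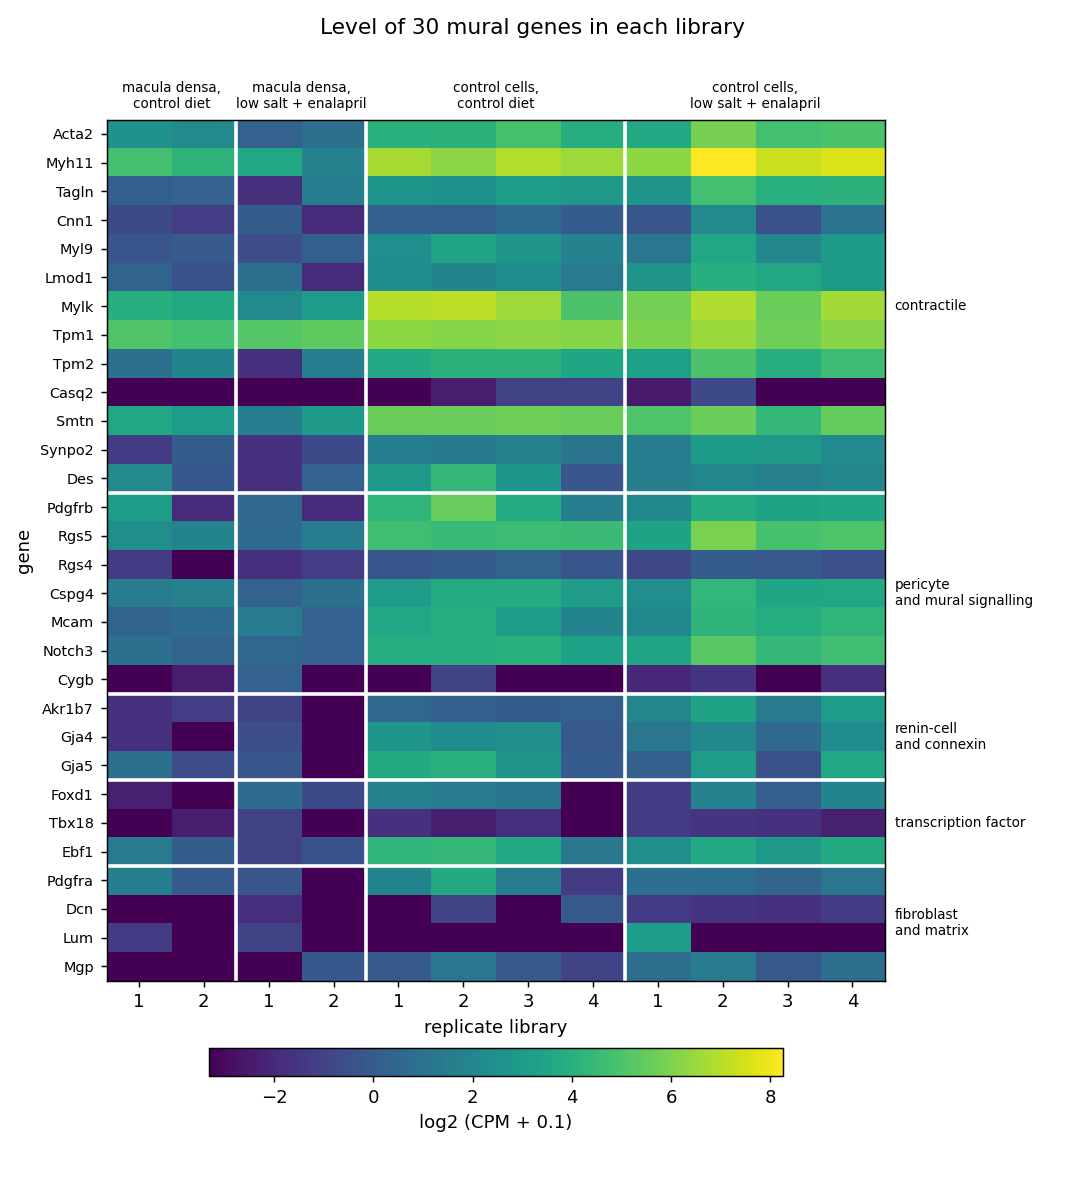
Colour gives log2 (CPM + 0.1) for the 30 listed mural genes (vertical axis, grouped by role) in the 12 libraries (horizontal axis, replicate numbers within the 4 groups). Control-cell columns are brighter than macula densa columns for most genes, replicate 2 of the control cells on low salt plus enalapril is the brightest for Myh11, and replicate 4 on control diet is dark for Des, Gja5, Foxd1 and Pdgfra.

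The diet comparison within control cells asked which mural genes accompanied the rise of renin. Ren1 lies on chromosome 1 from 133350510 to 133360325 (plus strand, GRCm38 with GENCODE M21). On control diet it measured 5.58, 1.88, 6.19 and 4.44 CPM in replicates 1 to 4, and on low salt plus enalapril 42.7, 135, 66.4 and 92.6 CPM. Every treated library lay above every library on control diet. Its log2 fold change was 4.21 ± 0.43 (SE) with an edgeR adjusted p of 0.00476, and it was the only one of 14180 genes called (0.00705%). The call was lost when only the control-cell libraries were fitted (edgeR adjusted p 0.0869) and with the replicate number as a block (edgeR adjusted p 0.10), at log2 fold changes of 4.25 and 4.19.

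None of the 24 mural genes passed the threshold in this comparison with edgeR. At an unadjusted p under 0.05 there were 5 higher and 0 lower, beside 4.01% of all tested genes higher and 2.44% lower at that level. The 5 were Akr1b7, Lmod1, Tagln, Synpo2 and Notch3. The DESeq2 Wald test called 1 mural gene, Akr1b7, and 0.522% of all genes, and limma voom called 0 and 0.00705%. The median log2 fold change of the 24 genes was 0.27 beside -0.04 for all genes, with 14 above 0 and 10 below. That median rested on replicate 2 of the treated group: without it the median was -0.11 and 2 genes, Lmod1 and Akr1b7, had an unadjusted p under 0.05, both higher, beside 4.40% of all genes higher in that fit. Without replicate 1 of that group the number was 8, all higher, beside 2.45% of all genes higher. Treated replicate 2 had the lowest total of all libraries, 4259020 counts, and treated replicate 1 the highest, 14856542. Without replicate 4 of the control-diet group there were 3 higher, Akr1b7, Lmod1 and Tagln, and 3 lower, Des, Ebf1 and Pdgfra, beside 4.95% and 3.40% of all genes.

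Akr1b7, an aldo-keto reductase that renin cells are known to make together with renin, had the largest fitted change of the set. It lies on chromosome 6 from 34412334 to 34423142 (plus strand). In control cells on control diet it measured 1.42, 1.03, 0.952 and 1.03 CPM, and on low salt plus enalapril 3.77, 10.04, 2.73 and 8.14 CPM. All 4 treated libraries lay above all 4 on control diet, which was also true of Lmod1 and of 2.10% of all tested genes. No mural gene lay wholly below, beside 2.09% of all genes. The log2 fold change was 2.45 ± 0.49 (SE), with an unadjusted p of 0.000288 and an edgeR adjusted p of 0.317. Across the alternatives the fold change ranged from 2.14 to 2.69 and the adjusted p from 0.00146, by the DESeq2 Wald test, to 0.835, without control-diet replicate 3. With a score of podocyte and endothelium markers as a covariate the change was 2.44 with an edgeR adjusted p of 0.0555, and that of Ren1 was 4.20 with 0.000268. The count of Akr1b7 is uncertain in 2 ways. Its exons overlap the antisense gene Gm13857 and no source used here says whether counting was by strand. It also has close paralogs: Akr1b8 held 76, 4, 35 and 2 counts in treated replicates 1 to 4 and 2 to 6 on control diet. Akr1b7 held 49, 41, 13 and 80 counts in the same treated libraries, and in CPM it was highest in replicates 2 and 4.

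The promoters of both genes are shown because these are the renin-cell genes that the comparison turns on. The windows are the 250 bases before the gene start in RefSeq on GRCm38.p6, 5′ to 3′ on the gene's strand. They lie at chr1:133350424-133350673 (plus strand) for Ren1 and chr6:34412112-34412361 (plus strand) for Akr1b7. Capitals mark, in the Ren1 window, a CArG box with 1 inner base G or C, starting at -92 from the RefSeq start, and a TATAAA match starting at -29. GENCODE M21 starts both genes further upstream, at 133350510 for Ren1 and 34412334 for Akr1b7, inside the windows. Both marked Ren1 matches therefore lie within the GENCODE gene.
Ren1: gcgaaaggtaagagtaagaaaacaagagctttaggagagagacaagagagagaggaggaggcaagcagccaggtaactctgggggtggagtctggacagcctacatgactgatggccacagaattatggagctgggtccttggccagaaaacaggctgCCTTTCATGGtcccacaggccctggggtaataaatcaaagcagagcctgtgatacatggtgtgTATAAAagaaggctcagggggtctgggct
Akr1b7: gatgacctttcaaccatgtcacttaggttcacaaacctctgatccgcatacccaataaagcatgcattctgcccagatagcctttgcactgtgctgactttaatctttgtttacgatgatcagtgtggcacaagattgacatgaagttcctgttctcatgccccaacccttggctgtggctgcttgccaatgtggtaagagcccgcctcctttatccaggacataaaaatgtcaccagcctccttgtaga
The CArG box is the binding motif of serum response factor, which is known to control contractile genes in smooth muscle, and TATAAA is a core promoter motif. All motifs were searched on both strands. The Akr1b7 window held none of the 3 motifs searched. Of 32851 windows of this length in the RefSeq table, 1.47% held a CArG box, 7.24% one with 1 inner base G or C and 12.4% TATAAA. A match describes letters and is not a measured binding site.

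The contractile genes had a median log2 fold change of 0.59 over 12 tested (7 above 0, 5 below), and 0.10 without treated replicate 2. Lmod1, the smooth muscle leiomodin that nucleates actin filaments, measured 4.81, 3.66, 4.86 and 2.69 CPM on control diet and 6.23, 15.2, 11.8 and 7.73 CPM on low salt plus enalapril. The 2 diets did not overlap. Its log2 fold change was 1.33 ± 0.42 (SE) with an edgeR adjusted p of 0.605. Tagln, the actin-binding protein transgelin, measured 6.67, 6.11, 8.57 and 7.23 CPM and then 6.46, 27.7, 16.0 and 17.2 CPM. Treated replicate 1 lay within the control-diet range and the other 3 above it, and the log2 fold change was 1.21 ± 0.46 (SE, edgeR adjusted p 0.694). Tagln shares exon sequence with Pcsk7 on the opposite strand. Synpo2, an actin-bundling protein of the muscle Z-disc, measured 3.06, 2.44, 3.33 and 2.07 CPM and then 2.997, 7.83, 7.35 and 4.48 CPM, again with replicate 1 inside the control-diet range. Its log2 fold change was 1.02 ± 0.39 (SE, edgeR adjusted p 0.694).

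Myh11, the heavy chain of smooth muscle myosin, showed a like pattern over the libraries and did not pass the threshold. It lies on chromosome 16 from 14194535 to 14291372 (minus strand) and measured 106, 74.5, 120 and 95.0 CPM on control diet against 77.9, 305, 158 and 198 CPM on low salt plus enalapril. Treated replicate 1 lay inside the control-diet range and the other 3 above it. The log2 fold change was 0.90 ± 0.41 (SE, edgeR adjusted p 0.781), and 0.55 without treated replicate 2. Acta2, smooth muscle alpha-actin, measured 16.7, 17.4, 29.3 and 14.7 CPM and then 12.4, 59.5, 27.5 and 31.4 CPM. The groups overlapped, and its log2 fold change of 0.73 ± 0.39 (SE, edgeR adjusted p 0.865) came to 0.28 without treated replicate 2. The other contractile genes had fitted values from 0.74 down to -1.37. Calponin (Cnn1) stood at 0.74 and the tropomyosin gene Tpm2 at 0.46 on the log2 scale, while the myosin light chain Myl9 at -0.01, Tpm1 at -0.09, the myosin light chain kinase Mylk at -0.26 and Smtn at -0.39 lay near or below 0. Desmin (Des), the intermediate filament of muscle and mesangial cells, had a log2 fold change of -1.37 ± 0.74 (SE, edgeR adjusted p 0.871). Its treated libraries held 2.997 to 3.97 CPM and its control-diet libraries 0.723 to 21.1 CPM.

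Acta2 and Myl9 are shown because both windows hold motif matches. Their fitted log2 changes were 0.73 ± 0.39 and -0.01 ± 0.48 (SE). Neither gene was called, and the difference between them was not tested. Windows were found for 24 of the 32 genes. The Acta2 window is at chr19:34255374-34255623 (minus strand), with a CArG box with 1 inner base G or C at -84 and another at -34 in capitals. The Myl9 window is at chr2:156775214-156775463 (plus strand), with a CArG box at -161 and one with 1 inner base G or C at -99 in capitals. The GENCODE M21 genes begin inside these windows too, at 34255590 for Acta2 and 156775420 for Myl9.
Acta2: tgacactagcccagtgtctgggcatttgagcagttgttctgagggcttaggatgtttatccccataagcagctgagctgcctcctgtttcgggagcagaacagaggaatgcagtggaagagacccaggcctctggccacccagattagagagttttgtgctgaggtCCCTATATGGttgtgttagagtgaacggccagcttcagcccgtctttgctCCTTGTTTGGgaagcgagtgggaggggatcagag
Myl9: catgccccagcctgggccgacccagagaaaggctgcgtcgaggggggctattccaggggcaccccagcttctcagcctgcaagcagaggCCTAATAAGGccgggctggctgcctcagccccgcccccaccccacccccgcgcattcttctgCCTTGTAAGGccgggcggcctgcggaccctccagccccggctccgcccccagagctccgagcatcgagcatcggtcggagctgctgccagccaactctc
Among the 24 genes with a window, 1 held a CArG box (Myl9), 3 held one with 1 inner base G or C (Acta2, Myl9 and Tbx18) and 2 held TATAAA (Rgs4 and Synpo2).

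Among pericyte and mural signalling genes, 4 of 5 tested had a fitted change above 0, with a median of 0.47. Notch3, the receptor that maintains arterial smooth muscle, measured 14.2, 14.9, 16.1 and 9.81 CPM on control diet and 10.8, 39.2, 20.8 and 26.0 CPM on low salt plus enalapril. Treated replicate 1 lay inside the control-diet range and the other 3 above it, with a log2 fold change of 0.80 ± 0.32 (SE) and an edgeR adjusted p of 0.713, and 0.48 without treated replicate 2. Rgs5, a regulator of G protein signalling found in pericytes and arterioles, spanned 21.9 to 25.6 CPM on control diet and 10.1 to 60.5 CPM on low salt plus enalapril. Its treated libraries lay on both sides of the control-diet range, and its log2 fold change was 0.47. The adhesion molecule Mcam and the proteoglycan Cspg4 stood at 0.48 and 0.08. Pdgfrb, the receptor that recruits pericytes and mesangial cells, measured 18.9, 47.1, 13.3 and 2.996 CPM on control diet and 4.15, 13.7, 10.3 and 11.2 CPM on low salt plus enalapril. The groups overlapped, and the log2 fold change was -1.09 ± 0.85 (SE, edgeR adjusted p 0.961). Without control-diet replicate 2, its highest library, the value was -0.24, and without replicate 4, its lowest, -1.46.

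The connexin genes did not follow Akr1b7. Gja5 measured 12.9, 16.9, 6.38 and 0.930 CPM on control diet and 1.08, 8.08, 0.630 and 11.7 CPM on low salt plus enalapril. Each diet had high and low libraries and the groups overlapped. The log2 fold change was -0.79 ± 0.88 (SE, edgeR adjusted p 0.979). Gja4, the other arterial connexin, had -0.44 ± 0.63 (SE). The summed endothelium markers of the treated libraries, 500, 1324, 363 and 1743 CPM, were high and low in the same libraries as Gja5, and their part in the Gja5 level was not tested. The factor Foxd1, which marks the stromal lineage of mural cells and is also made by podocytes, stood at 0.05 ± 0.91 (SE), and Ebf1 at -0.51 ± 0.54 (SE). Pdgfra, the receptor of fibroblasts, had a log2 fold change of -1.47 ± 0.83 (SE, edgeR adjusted p 0.889), and Mgp, a matrix protein of vessel walls, 0.64 ± 0.69 (SE). Of the untested genes, Rgs4 held 4 to 13 counts in each control-cell library, and Dcn, Tbx18, Casq2 and Cygb 0 to 8. Lum, a proteoglycan of the matrix, held 115 counts in treated replicate 1 and 0 in the other 7 control-cell libraries.

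The 10 genes were picked for their low level in control-diet replicate 4, so leaving that library out lowers their fitted diet values by construction. Leaving it out moved Des from -1.37 to -1.76, Pdgfra from -1.47 to -1.86 and Pdgfrb from -1.09 to -1.46 on the log2 scale. Gja5 moved from -0.79 to -1.16, Gja4 from -0.44 to -0.78 and Ebf1 from -0.51 to -0.87. Mylk moved from -0.26 to -0.55, Mcam from 0.48 to 0.20 and Mgp from 0.64 to 0.37, and Foxd1 changed sign, from 0.05 to -0.37. None of the 10 was called with or without it. Leaving out control-diet replicate 2 instead gave -0.48 for Des and -0.29 for Pdgfra. The score of podocyte and endothelium markers as a covariate gave values nearer to 0 for several of them, at -0.65 for Des, -0.68 for Pdgfra, -0.47 for Pdgfrb, -0.39 for Gja5, -0.05 for Gja4, -0.07 for Ebf1 and -0.05 for Mylk. In that fit Foxd1 stood at 0.82 and Mcam at 0.65, and none of these genes was called.

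**Figure D3:**
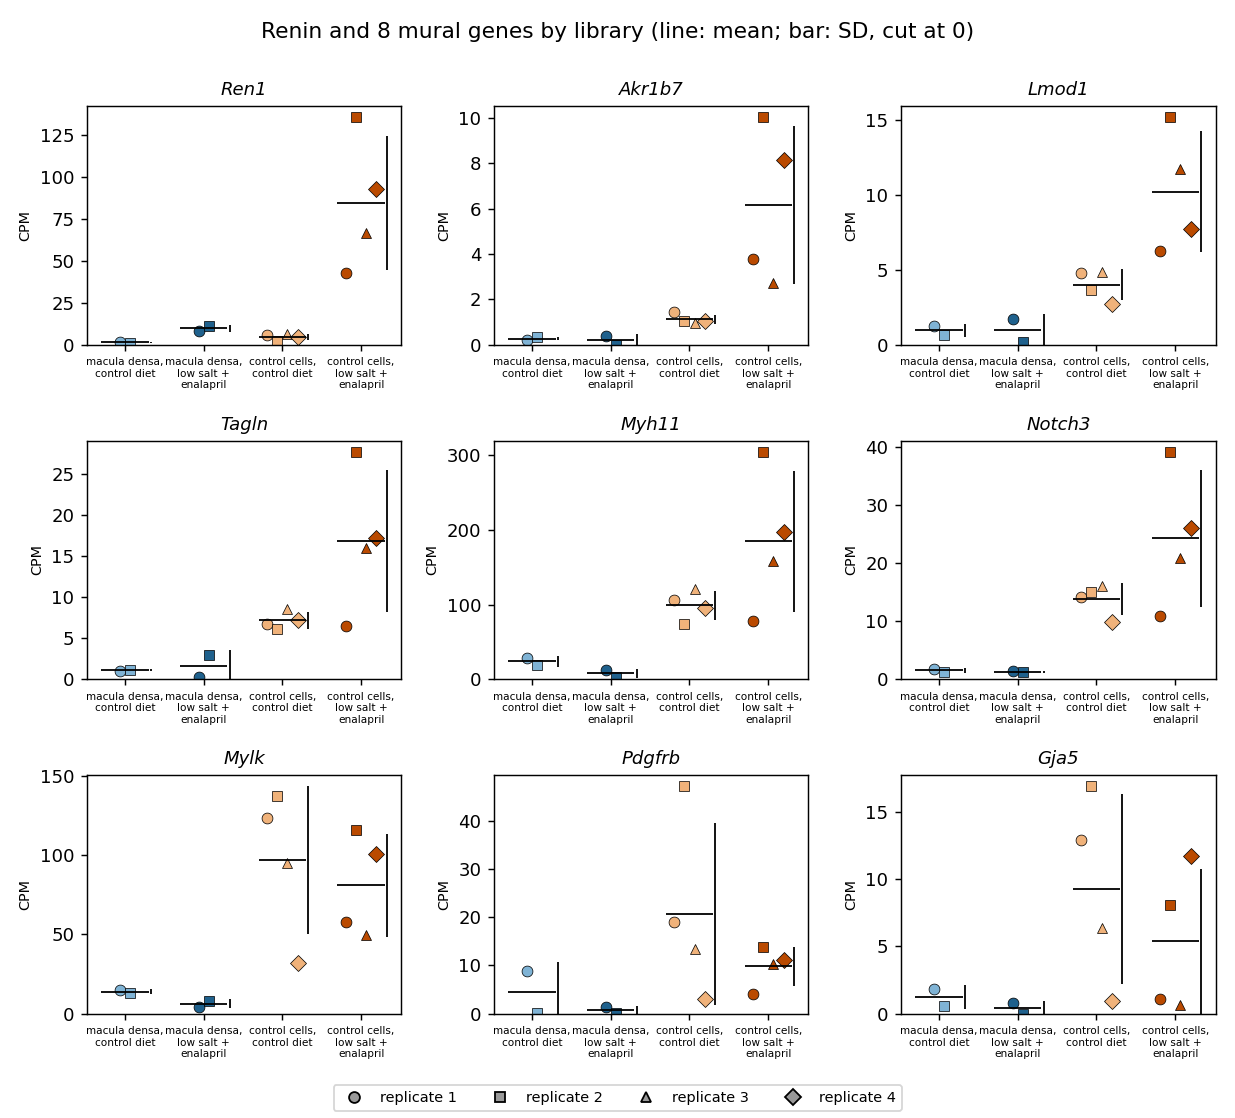
Each panel shows CPM (vertical axis, from 0) of 1 gene in the 12 libraries by group (horizontal axis), with marker shape for the replicate, a line for the group mean and a bar for the SD, cut at 0. In control cells, Ren1, Akr1b7 and Lmod1 have no overlap between diets; Tagln, Myh11 and Notch3 have treated replicate 1 among the control-diet libraries and replicate 2 highest; Mylk, Pdgfrb and Gja5 overlap.

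Within the treated control cells, libraries with more Ren1 also held more of several mural transcripts. The order of Ren1 was replicate 2, 4, 3 and 1, and 9 of the 24 tested mural genes had exactly this order, beside 6.00% of all tested genes. These were Acta2, Myh11, Tagln, Myl9, Tpm2, Pdgfrb, Rgs5, Cspg4 and Notch3, and the count was made after the levels had been seen. The highest library was that of Ren1 for 17 of the 24, beside 27.2% of all genes. Akr1b7 had another order, with replicate 1 above replicate 3. On control diet, where the order of Ren1 was replicate 3, 1, 4 and 2, Myh11 alone of the 24 shared it, beside 1.65% of all genes. The podocyte marker sum of the treated libraries had the order of Ren1 as well, at 274, 1675, 382 and 1389 CPM in replicates 1 to 4, and its part in the shared order was not tested. Treated replicates 2 and 1, the ends of the order of Ren1, also had the lowest and the highest total of all libraries. With 4 libraries per group no correlation is given.

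Against control cells, macula densa cells held less of nearly the whole set. Averaged over both diets, 20 of the 24 tested genes were lower in macula densa cells and 0 higher with edgeR, beside 13.9% of all tested genes lower and 7.48% higher. All 5 pericyte and signalling genes, all 3 renin-cell and connexin genes, 10 of 12 contractile genes, 1 of 2 transcription factors (Ebf1) and 1 of 2 fibroblast genes (Mgp) were called. Cnn1, Des, Foxd1 and Pdgfra were not, with log2 fold changes of -1.58, -2.08, -3.05 and -1.79. The median of the 24 was -3.02 on the log2 scale (-3.004 with Mgp, at 0 counts in both macula densa libraries on control diet, set at its bound), beside -0.06 for all genes. Without control-cell replicate 4 on control diet 23 genes were called, beside 17.5% of all genes lower, and without macula densa replicate 2 on control diet 17, beside 6.87%. For 16 genes every macula densa library lay below every control-cell library, beside 5.28% of all genes.

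Notch3 had the smallest adjusted p of the set. It measured 1.74 and 1.22 CPM in macula densa cells on control diet and 1.34 and 1.15 CPM on low salt plus enalapril, against 9.81 to 39.2 CPM in control cells. No macula densa library reached the lowest control-cell library. The log2 fold change was -3.74 ± 0.37 (SE) with an edgeR adjusted p of 5.59e-05. Gja4 had a log2 fold change of -4.41 ± 0.84 (SE, edgeR adjusted p 0.00384), from 2, 0, 3 and 0 counts in the macula densa libraries. Akr1b7, with 2, 4, 2 and 0 counts there, had -3.48 ± 0.59 (SE, edgeR adjusted p 0.00198). Ebf1, a factor of stromal and B cell lineages, stood at -3.52 ± 0.63 (SE, edgeR adjusted p 0.00289).

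The main contractile genes were lower by similar amounts. Myh11 measured 28.8 and 18.3 CPM in macula densa cells on control diet and 12.3 and 3.28 CPM on low salt plus enalapril, below all 8 control-cell libraries. Its log2 fold change was -3.32 ± 0.43 (SE, edgeR adjusted p 0.000382). Mylk stood at -3.24 ± 0.43 (SE), Acta2 at -3.19 ± 0.42 (SE) and Rgs5 at -3.17 ± 0.42 (SE), with edgeR adjusted p-values of 0.000398, 0.000424 and 0.000456. Tpm1 was the exception in size, at -1.04 ± 0.17 (SE, edgeR adjusted p 0.00148). Gja5, at -3.41 ± 1.05 (SE, edgeR adjusted p 0.0371), kept its call in 10 of 22 alternatives and Pdgfrb, at -2.96 (edgeR adjusted p 0.0429), in 9 of 22. Ren1 was lower too, at -2.51 ± 0.39 (SE, edgeR adjusted p 0.00114). Endothelium markers (13 of 13 lower) and podocyte markers (9 of 12 lower, 1 higher) were called too, with medians of -4.49 each (-4.37 for endothelium with its gene at 0 counts in a group set at its bound). With their score as a covariate, 11 mural genes were called, all lower, among them Myh11, Acta2, Notch3 and Lmod1, beside 4.08% of all genes lower in that fit. In that fit Gja5 stood at 0.86, Pdgfrb at -0.17, Gja4 at -1.98 and Akr1b7 at -2.59, none of them called.

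**Figure D4:**
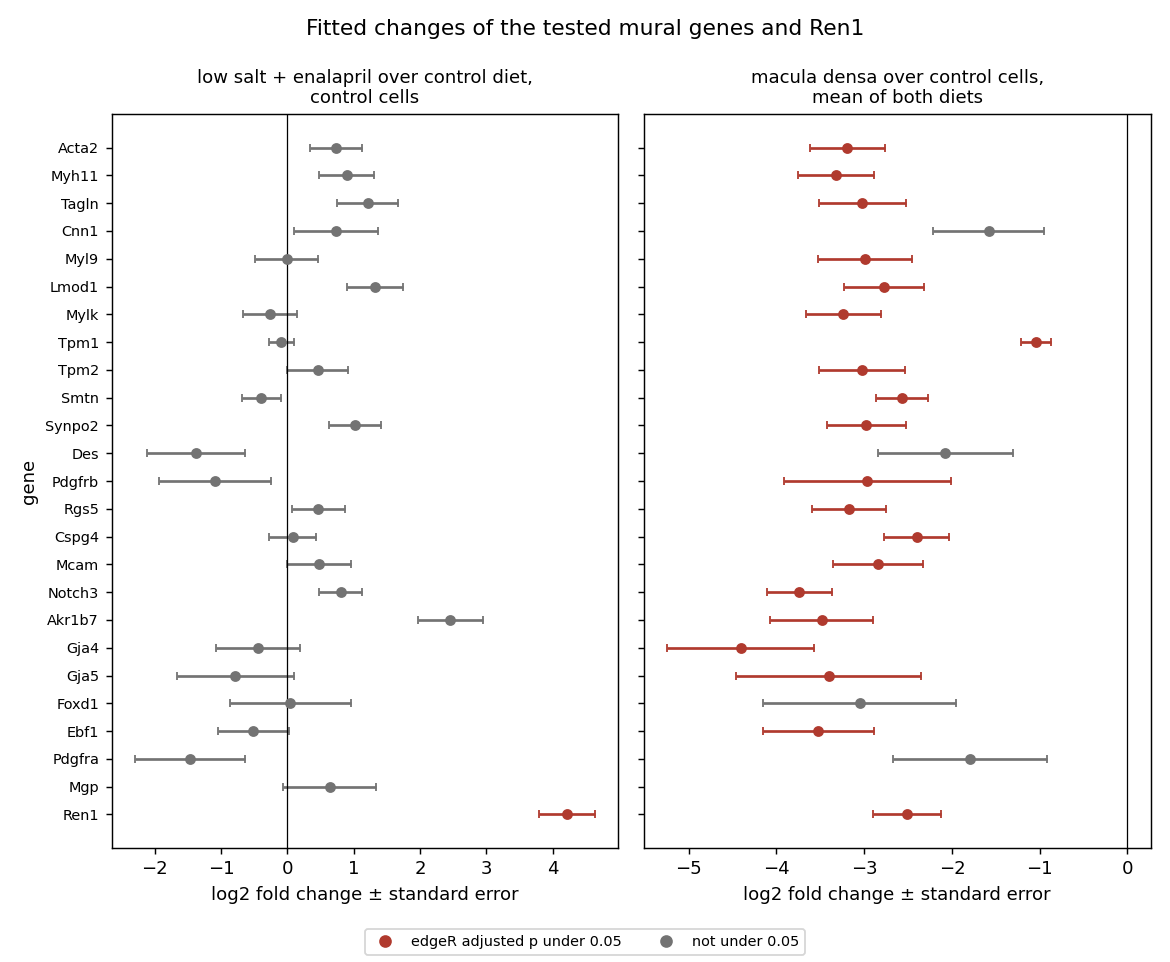
Points are fitted log2 fold changes with their standard errors for the tested mural genes and Ren1 (vertical axis), on the left for low salt plus enalapril over control diet in control cells and on the right for macula densa over control cells averaged over both diets. Red marks an edgeR adjusted p under 0.05. On the left Ren1 alone is red and Akr1b7 comes next at 2.45; on the right most genes lie near -3. Mgp has no point on the right because a group had 0 counts.

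Within macula densa cells, none of the 24 mural genes was called between the diets with edgeR, the DESeq2 Wald test or limma voom. Of all 14180 genes, edgeR called 0%, the DESeq2 Wald test 0.656% and limma voom 0.0282%. With edgeR, 3 of the 24 had an unadjusted p under 0.05, beside 11.2% of all genes. Acta2 measured 5.64 and 4.48 CPM on control diet and 1.15 and 1.80 CPM on low salt plus enalapril. Myh11, given above, was likewise lower in both treated libraries. Their log2 fold changes were -1.75 ± 0.68 (SE) and -1.61 ± 0.62 (SE, edgeR adjusted p 0.374 for both). Smtn followed at -0.93 (edgeR adjusted p 0.464). Groups of 2 libraries that do not overlap were common, at 21.8% of all genes in the lower direction and 18.8% in the higher, and 8 and 2 of the 24 mural genes were among them. Mgp, the third gene with a small p, and Foxd1 rest on a few reads. Mgp had 0 and 0 counts on control diet and 0 and 5 on low salt plus enalapril (edgeR adjusted p 0.371), and Foxd1 1 and 0 against 8 and 3 (edgeR adjusted p 0.474). Ren1 measured 1.44 and 0.977 CPM and then 8.24 and 10.99 CPM, with a log2 fold change of 2.99 ± 0.63 (SE) and an edgeR adjusted p of 0.215. Ren1 was called there in 3 alternatives, with adjusted p-values of 0.0034 by the DESeq2 Wald test, 0.0155 in edgeR with the macula densa libraries alone and 0.0465 in edgeR with the marker covariate. Endothelium markers summed to 255 and 38.6 CPM in the macula densa libraries on control diet and to 23.2 and 17.6 CPM on low salt plus enalapril. With the podocyte and endothelium score as a covariate, Acta2 stood at -1.33 and Myh11 at -1.27, neither called. The part of the endothelium markers alone was not tested.

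The difference between the 2 diet effects, macula densa minus control cells, was tested as an interaction. It called 0 of the 24 mural genes with edgeR, the DESeq2 Wald test or limma voom. Of all genes, edgeR called 0%, the DESeq2 Wald test 0.0917% and limma voom 0%. In edgeR, 3 of the 24 had an unadjusted p under 0.05, beside 7.03% of all genes. Myh11 had a difference of -2.51 ± 0.75 on the log2 scale (SE, edgeR adjusted p 0.605), with fitted changes of 0.90 in control cells and -1.61 in macula densa cells. Acta2 had -2.48 ± 0.78 (SE, edgeR adjusted p 0.633) and Akr1b7 -3.01 ± 1.27 (SE, edgeR adjusted p 0.688). Synpo2 stood at -1.90 ± 0.90 (SE, edgeR adjusted p 0.720). For Ren1 the difference was -1.22 ± 0.74 (SE, edgeR adjusted p 0.774).

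Other genes of the same cell types and of renin control were read from fixed lists. Their counts in macula densa against control cells stand beside 13.9% of all tested genes called lower and 7.48% called higher. Of 24 other contractile smooth muscle genes tested, 14 were lower and 0 higher in macula densa cells than in control cells, with a median of -1.33. Gucy1a1, Itga8, Ppp1r14a and Myocd were among those called, and all 4 had 0 counts in macula densa cells on low salt plus enalapril, so no fitted fold is given. Of 12 other pericyte and mesangial genes, 4 were lower and 1 higher, with a median of -2.01. Heyl, a target of Notch signalling in vessels, stood at -4.11 (edgeR adjusted p 9.80e-05), Fhl2 at -3.65, Gata3 at -3.06 and Serpine2 at -2.06. Gata3 was highest in control-cell replicate 4 on control diet, at 31.2 CPM. The principal cell markers also summed highest there, at 944 CPM, and their part in the Gata3 level was not tested. The higher gene was Itga1, named after its values were seen. Of 9 other fibroblast genes, 6 were lower and 1, Sfrp1, was higher at 4.39 (edgeR adjusted p 0.000464). Of 17 genes of renin control, 7 were lower, among them Npr1 at -4.70, Adora1 at -3.76, Pde3b at -3.03 and Mef2c at -2.90. The 2 higher, Casr and Rbpj, were named after their values were seen. In the diet comparison of control cells, no gene of these 4 lists other than Ren1 was called, and their medians were 0.13, -0.46, -0.06 and 0.03.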

How the data were processed

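The estimated counts per gene of 12 libraries were used as deposited; for how the authors made them, the submitters' processing notes name STAR 2.61, Partek and mm10. Per the labels' protocols the libraries came from a stranded total-RNA kit for low input, and the strand setting of the counting is not given in the sources used here. Of the values, 14.8% were not whole (tolerance 1e-06), and all were rounded. The smallest gene total was 10, and 0 columns lacked a sample. Symbol, start and end minus 1 equalled GENCODE M21 for 23351 of 23378 genes.

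The edgeR 4.0.16 quasi-likelihood test (R 4.3.3; filterByExpr with count minimum 10 and total minimum 15; TMM scaling) was fitted to all 12 libraries with 1 coefficient per group, since the macula densa groups hold 2 libraries each. It covered 14180 genes, with Benjamini-Hochberg adjustment over all of them at 0.05. A called change is one that passed this threshold. The standard error is the fold change divided by the square root of the F statistic. Levels are CPM, errors SD between libraries. Each value after ± beside a log2 fold change is that standard error. Floors of 3 counts describe counting error alone, because no molecular identifiers are named in the labels. Simulated counts were used to test the fit. Pairwise tests found no library deposited more than once.

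Members, lists and tests were chosen with earlier results of these data known. Full statistics went to members called in a comparison (at most 10, by size) or else to the 5 with the smallest p, and to Ren1; values of other members are given as descriptions. Alternatives were DESeq2 1.42.0 size factors and Wald test, limma 3.58.1 voom, library totals alone, other filters, other libraries in the fit, blocks, a covariate of podocyte and endothelium markers, and leaving out each library.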

Additional observations from a re-analysis of the deposited data

Results flagged for a closer look

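In 50 sets of 4 control-cell libraries, 2 held a library that stood outside the rest by Dixon's criterion, where chance at 1 in 20 gives 2.5. Smtn in control cells on control diet measured 52.0 CPM in replicate 3, while the other 3 libraries lay between 48.5 and 49.0 CPM, so the gap was wide only beside a very narrow range. Foxd1 in the same group was at 0 CPM in replicate 4 and between 2.19 and 3.28 CPM in the other libraries. That replicate also held the fewest endothelium and podocyte markers of its group.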

How the results depend on the processing

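In the control-cell diet comparison, the number of mural genes called was 0 in all alternatives but the DESeq2 Wald test, which called 1 (Akr1b7). Ren1 lost its call in 2 of them. In macula densa against control cells, 20 genes were called, 11 with the covariate of podocyte and endothelium markers, and 17 to 23 when 1 library was left out (17 without macula densa replicate 2 on control diet, 23 without control-cell replicate 4 on control diet). Gja5 turned to 0.86 with the covariate. Of 218 alternative values for the named genes there, 202 kept direction and call, 15 lost the call and 1 turned. In the macula densa diet comparison the count was 0 except with the covariate, where it was 1 (Foxd1), beside 0.501% of all genes. The count for the difference of diet effects was 0 throughout. Scaling by library totals alone moved the median of all genes from -0.06 to 0.14 in macula densa against control cells, with 19 mural genes called and a split over all genes of 1827 higher and 1450 lower in place of 1061 and 1966. Libraries that shared a number in the title had correlations of deviations from -0.378 to 0.278. In the macula densa groups of 2 libraries, deviations from the group mean mirror each other, so such correlations cannot decide whether samples were paired. Numbers in the descriptions, shared by 4 macula densa and control-cell library pairs, may mark animals, which the labels do not say. Correlations within these pairs were -0.0371 to 0.227. Each pair includes a macula densa library, so these values cannot decide the question either. With the replicate block of the title number, 18 mural genes were called in macula densa against control cells, beside 8.62% of all genes lower. In the other comparisons that block called 0. With the block of the description number, in 8 libraries, 24 were called, beside 16.5% of all genes lower, and 0 for the difference. The description block was not run for the diet effects, which it would absorb, and a fit of only the groups compared is the same as the one given where all groups enter. Where 1 library was left out of a group of 2, the lone library was assumed to vary like the other groups. Macula densa comparisons rest on few reads: Akr1b7 had at most 4 counts per library.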

Other observations

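Some matrix transcripts were high in 1 library, and the genes were chosen after their values were seen. Lum, a collagen-binding proteoglycan of the matrix, held 115 of its 120 counts in replicate 1 of the control cells on low salt plus enalapril. The same library held 175 counts of Col1a1 and 228 of Col3a1, where the other 7 control-cell libraries held 4 to 16 and 7 to 30. It also held 1431 counts of the complement gene C3, which was at 226 in treated replicate 3 and at 28 to 63 in the other control-cell libraries. Other fibroblast genes did not share this: Pdgfra had 23 counts there against 139 in control-diet replicate 2, and Dcn 4 against 8 in control-diet replicate 4. Of the 11 other fibroblast genes listed, 3 (Col1a1, Col3a1 and C3) had their highest control-cell level in that library.

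Pdgfrb, Des and Pdgfra had their highest level of all libraries in replicate 2 of the control cells on control diet, at 47.1, 21.1 and 13.1 CPM. Of the 15 other pericyte and mesangial genes listed, 6 were highest among the control-cell libraries there too (Steap4, Art3, Serpine2, Ptn, Fhl2 and Sfrp2), 5 in treated replicate 2 and 3 in control-diet replicate 4 (Angpt1, Gata3 and Itga1). Itga8, which was counted above in the list of other contractile genes, and Sfrp2 and Ptn were chosen for their counts after these were seen. Itga8 held 204, 463, 176 and 11 counts in the control-diet libraries and 14, 26, 9 and 51 in the treated ones. Sfrp2 held 244, 660, 208 and 3 counts against 4, 18, 3 and 16, and Ptn 127, 335, 105 and 6 against 5, 7, 0 and 13. These are described per library, since control-diet replicate 4 lies with the treated libraries.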
